A study of Danio rerio with 4 samples.

Results

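Windows of 1 kb whose DNA methylation differed by 25 percentage points or more between the 8 hpf library (75% epiboly, gastrula) and the 4 hpf library (dome, blastula) are described here. A window entered the comparison when at least 6 of its CpGs were covered and at least 40 reads fell on its CpGs in both libraries. Its level was the share of those reads that were methylated. A read was counted at each CpG it spanned, so read numbers of windows and libraries are counts of CpG calls. They exceed the number of separate reads where reads span several CpGs. Of 1096421 windows compared on the 25 nuclear chromosomes, 6463 differed by 25 points or more, 4423 being higher at 8 hpf (0.403% of windows compared) and 2040 being lower at 8 hpf (0.186%). The windows compared were drawn from 1354664 windows with at least 1 listed CpG.

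The study sequenced whole-genome bisulfite libraries of DNA from whole zebrafish embryos at 2, 4, 8 and 24 hours post fertilization (hpf), with 1 library for each stage. The labels give no strain, treatment or genotype, and the DNA of each stage came from whole timed embryos, so a level is an average over all cells and embryos in the library. No stage has a replicate, so the spread between embryo pools is not known and intervals cover counting error only. Intervals on shares of windows treat windows of the same libraries as independent, which they are not, and are descriptions. A Fisher exact test on the reads of each window was run as an alternative only, and it compares 2 libraries, not 2 stages. Reads over nuclear CpGs numbered 194648540 at 8 hpf and 506486388 at 4 hpf, with a median coverage of 6 and 19 reads per CpG. Between 86.3% and 88.4% of reads were methylated in the 4 libraries, and mitochondrial CpGs, which are taken as unmethylated, gave 0.436% to 0.853%.

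DNA methylation in vertebrates lies almost entirely at CpG dinucleotides, where a maintenance methyltransferase copies it to the new strand after replication and de novo methyltransferases add it. Bisulfite turns unmethylated cytosines into uracil, so that reads over a CpG are told apart as methylated or unmethylated. The zebrafish genome is highly methylated apart from short hypo-methylated regions, many of which lie at promoters. The interval from blastula to gastrula follows the start of zygotic transcription and holds the onset of cell movements that form the germ layers.

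Most windows differed little. The median difference between 8 hpf and 4 hpf over all windows compared was 0.41 points, the quartiles were -1.91 and 2.64 points, and 93.6% differed by less than 10 points. A change from one extreme to the other was rare. Only 30 windows were above 75% at 8 hpf and below 25% at 4 hpf, and 5 were below 25% at 8 hpf and above 75% at 4 hpf. At the threshold itself, 523 windows were 25 to 26 points higher and 564 were 24 to 25 points higher, against 295 and 367 for windows lower at 8 hpf.

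**Figure D1:**
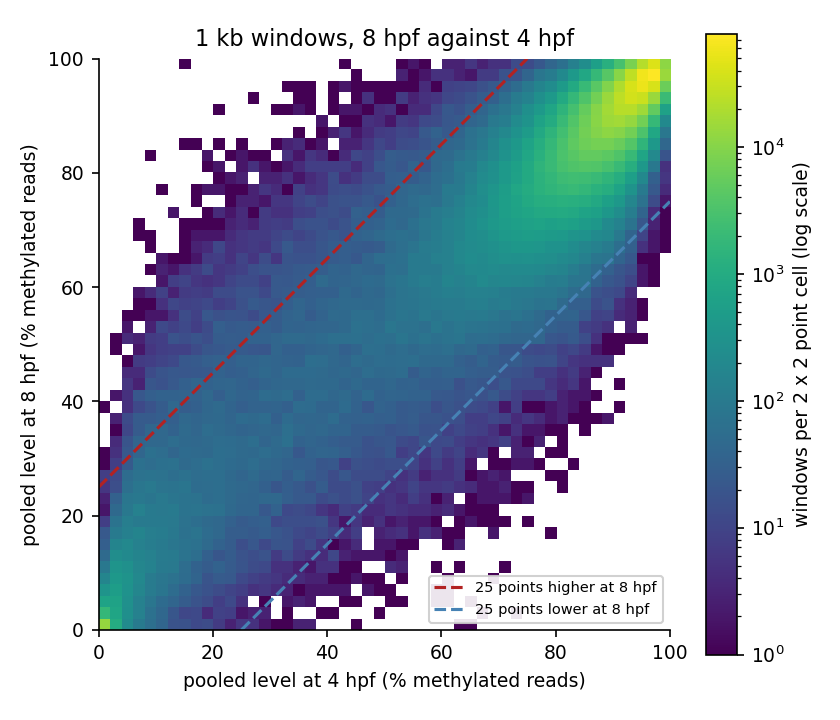
Pooled methylation level at 8 hpf (vertical axis, percent of reads) against the level at 4 hpf (horizontal axis, percent of reads) for the 1096421 windows, coloured by the number of windows in each cell of 2 by 2 points on a log scale. The 4423 windows above the red line and the 2040 below the blue line are sparse beside the mass of windows near 90% at both stages.

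Windows higher at 8 hpf mostly started at low to intermediate levels, and windows lower mostly started higher. Windows higher at 8 hpf had a median pooled level of 64.6% at 8 hpf and 30.3% at 4 hpf. Windows lower at 8 hpf had a median of 46.1% at 8 hpf and 77.1% at 4 hpf. These levels were used to choose the windows. Of windows that started between 10% and 25%, 15.3% were higher at 8 hpf, and of those that started between 25% and 50%, 13.9% were. Of windows that started between 50% and 75%, 2.13% were higher and 1.77% were lower. Among the 702365 windows that started at 90% or more, 222 were lower. The 0.403% above is thus taken over windows most of which started above 75% and could not be 25 points higher.

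The pooled level of a window depends on how methylated its CpGs are and on how its reads are spread over them. Within a window both can differ between 2 libraries. The difference was therefore also measured on the same CpGs with the same weights, as the Mantel-Haenszel difference over CpGs read in both libraries, in which each CpG is compared with itself and carries one weight for both stages. This measure was added after the values were seen.

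On the same CpGs, most of the windows differed far less. Of the 4423 windows higher at 8 hpf, 735 (16.6%, Wilson 95% interval 15.5% to 17.7%) were still 25 points or more higher, 990 were 10 to 25 points higher, 1911 were 0 to 10 points higher and 771 lay on the other side of 0. The remaining 16 shared fewer than 6 CpGs between the libraries. The median difference on the same CpGs was 5.74 points, with quartiles of 0.969 and 19.8. Of the 2040 windows lower at 8 hpf, 365 (17.9%, interval 16.3% to 19.6%) were still 25 points or more lower, 669 were 10 to 25 points lower, 738 were 0 to 10 points lower, 263 lay on the other side of 0 and 5 shared fewer than 6 CpGs. Over all 1095481 windows with at least 6 shared CpGs, 905 were 25 points or more higher at 8 hpf (0.0826%) and 528 were 25 points or more lower (0.0482%). Below, windows called higher or lower on the same CpGs are the 735 and the 365, which passed 25 points by both measures. Windows that passed on the same CpGs but not in pooled reads are left out of their counts and shares.

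**Figure D2:**
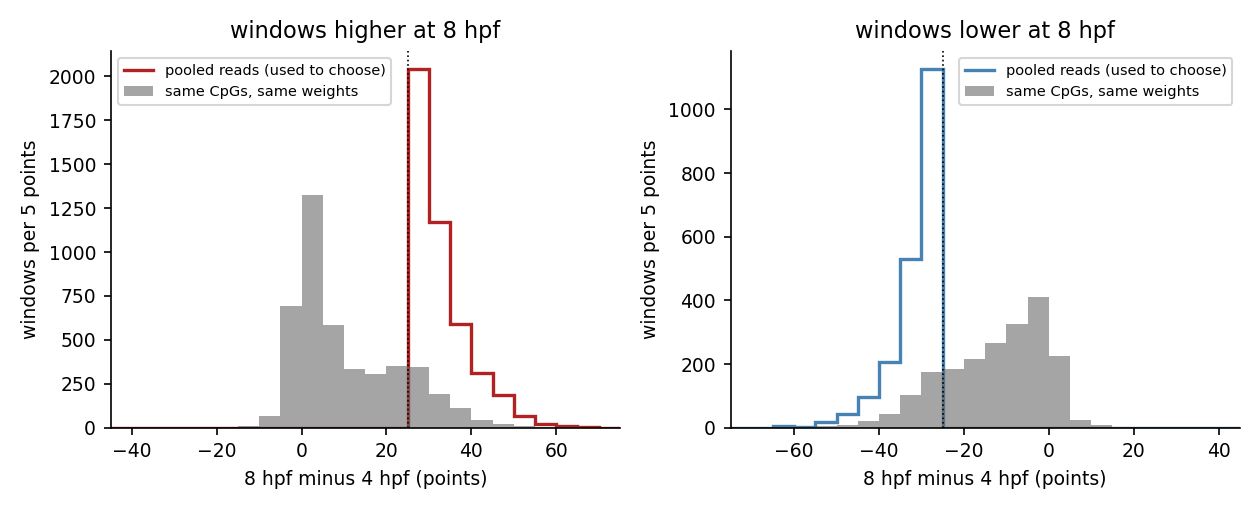
Histograms of the difference between 8 hpf and 4 hpf (horizontal axis, points) for windows chosen as higher (left) and as lower at 8 hpf (right), with the number of windows per 5 points on the vertical axis. Lines show the pooled difference that chose the windows and grey areas the difference on the same CpGs, whose median lay at 5.74 points among windows higher at 8 hpf.

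Windows by position show the difference between both measures. The window chr6:7782001-7783000 (Zv9) held 14 CpGs and had a pooled level of 68.9% in 238 reads at 8 hpf, against 8.74% in 618 reads at 4 hpf, a difference of 60.2 points. Its second CpG was methylated in 142 of 158 reads at 8 hpf and in 39 of 42 reads at 4 hpf. The CpGs numbered 4 to 13 were unmethylated or nearly so at both stages. What differed was the number of reads on them. At the fifth CpG, 0 of 6 reads were methylated at 8 hpf and 0 of 78 at 4 hpf. On the same CpGs the window differed by 1.09 points (95% interval -3.7 to 5.87).

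The window chr13:28795001-28796000 showed the opposite placement of reads. Its pooled level was 18.6% in 199 reads at 8 hpf, against 67.9% in 498 reads at 4 hpf. Of its CpGs, 6 were above 80% and 9 were below 20% at both 24 and 2 hpf. On those 6 CpGs, 94.4% of 36 reads were methylated at 8 hpf and 96% of 328 reads at 4 hpf. On those 9 CpGs, 0.621% of 161 reads were methylated at 8 hpf and 0 of 133 at 4 hpf. The difference on the same CpGs was 0.431 points (-2.1 to 2.96), against -49.3 points in pooled reads.

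The window chr19:6050001-6051000 differed at its CpGs themselves. Its pooled level was 77.1% in 240 reads at 8 hpf, against 21.6% in 598 reads at 4 hpf. All 19 of its CpGs were more methylated at 8 hpf, with fractions of 44.4% to 100% (median 75%) at 8 hpf and 9.09% to 65.2% (median 16.7%) at 4 hpf. The first CpG was methylated in 7 of 12 reads at 8 hpf and in 11 of 60 reads at 4 hpf. On the same CpGs the window was 48.2 points higher (41.1 to 55.2). Its equal-weight level, the mean of its CpG fractions, was 65.3%, 23.5%, 72.1% and 48.3% at 2, 4, 8 and 24 hpf, so that 4 hpf was the lowest stage.

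**Figure D3:**
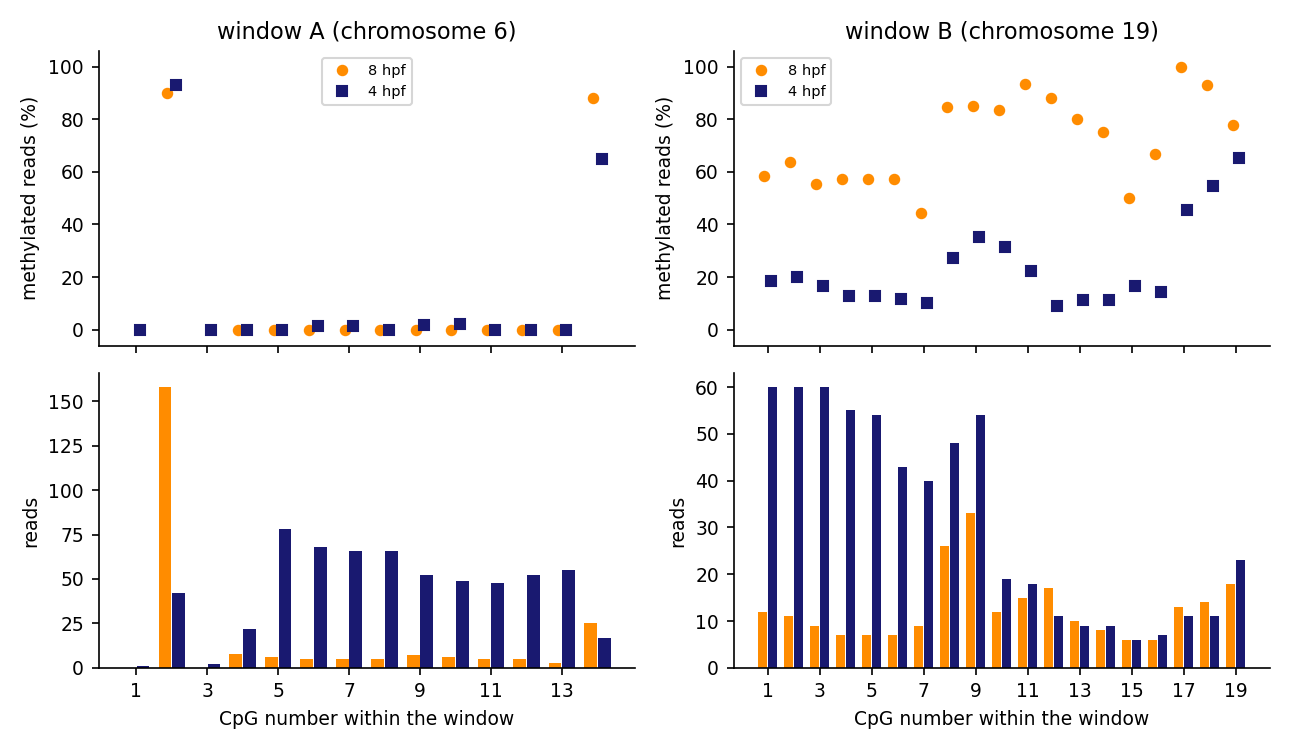
Share of methylated reads (top, percent) and number of reads (bottom) at each CpG of 2 windows, with CpGs numbered along the window and 8 hpf in orange beside 4 hpf in dark blue. In window A (chr6:7782001-7783000) the CpG fractions are close except at the last CpG and the second CpG holds 158 reads at 8 hpf against 42 at 4 hpf, whereas in window B (chr19:6050001-6051000) all 19 fractions are higher at 8 hpf.

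Read placement was described for the chosen windows without a difference of 25 points on the same CpGs. Among these, 990 windows higher and 669 lower still differed by 10 to 25 points on the same CpGs. CpGs were classed by the 24 hpf and 2 hpf libraries. A window with a pooled difference and a smaller one on the same CpGs must have its reads placed differently, so the shift follows from the choice and its size is a description. A CpG was called low when under 20% and high when over 80% of reads were methylated in both of those libraries, with at least 5 reads in each. In the 3688 windows that were higher at 8 hpf without a difference of 25 points on the same CpGs, 37.7% of CpGs with these reads were low and 28.5% were high. Low CpGs took 18.9% of the reads at 8 hpf and 43.8% at 4 hpf in these windows. The coverage per low CpG relative to that per high CpG was 0.313 at 8 hpf and 1.47 at 4 hpf, beside 0.658 at 2 hpf and 0.475 at 24 hpf. The methylation of both classes was close, with 2.9% at 8 hpf and 1.72% at 4 hpf for low CpGs and 95.5% at 8 hpf and 91.4% at 4 hpf for high CpGs.

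The 1675 corresponding windows lower at 8 hpf had the reverse. Low CpGs took 36% of the reads at 8 hpf and 14.7% at 4 hpf. Their coverage relative to high CpGs was 2.82 at 8 hpf and 0.553 at 4 hpf. Over all windows compared this ratio was 0.729 at 8 hpf and 0.833 at 4 hpf. The part that read placement had in these windows' pooled difference is measured by the same-CpG values, while the cause of the placement was not tested.

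Many of the chosen windows lay beside low methylation. An adjacent window under 25% at 2 hpf was found for 42.3% of all windows higher at 8 hpf and 21.4% of those lower, against 4.96% of all windows compared. Among windows higher at 8 hpf, much of this went with the start level. Of windows with a measured neighbour and a pooled start of 10% to 25%, the share was 60.5% of windows higher and 55.2% of uncalled windows. At 25% to 50% it was 40.1% of windows higher, 42.8% of windows lower and 45.4% of uncalled windows. At 50% to 75% it was 14.8%, 33.5% and 14.6%. At 75% to 90% it was 13.5% of windows lower and 3.32% of uncalled windows. At 90% or more it was 4.13% and 1.53%. From a start of 50% on, windows lower thus had such a neighbour more often than uncalled windows of like start. Among windows with an equal-weight level of 25% to 50% at 4 hpf, such a neighbour was found for 10.3% of those higher also on the same CpGs. It was found for 58.5% of the other windows higher at 8 hpf and 48.2% of windows not called in either direction. The share was 11.8% of all 735 windows higher and 11.5% of all 365 windows lower on the same CpGs.

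The 735 windows higher on the same CpGs were CpG-dense. They held a median of 26 listed CpGs (quartiles 16.5 to 35), against 18 in the other windows higher at 8 hpf and 16 in all windows. Of windows with 30 to 49 CpGs, 0.19% were higher on the same CpGs, against 0.0315% of those with 10 to 14 CpGs. The 365 windows lower on the same CpGs held a median of 18 CpGs, and their share showed no steady order by density, with 0.043% at 6 to 9 CpGs, 0.0247% at 10 to 14, 0.0232% at 15 to 19, 0.0369% at 20 to 29 and 0.048% at 30 to 49. In pooled reads the share of windows lower at 8 hpf was 0.27% at 6 to 9 CpGs and 0.146% at 30 to 49 CpGs. Without windows over 3 times the median coverage, the windows higher on the same CpGs held a median of 24 CpGs.

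**Figure D4:**
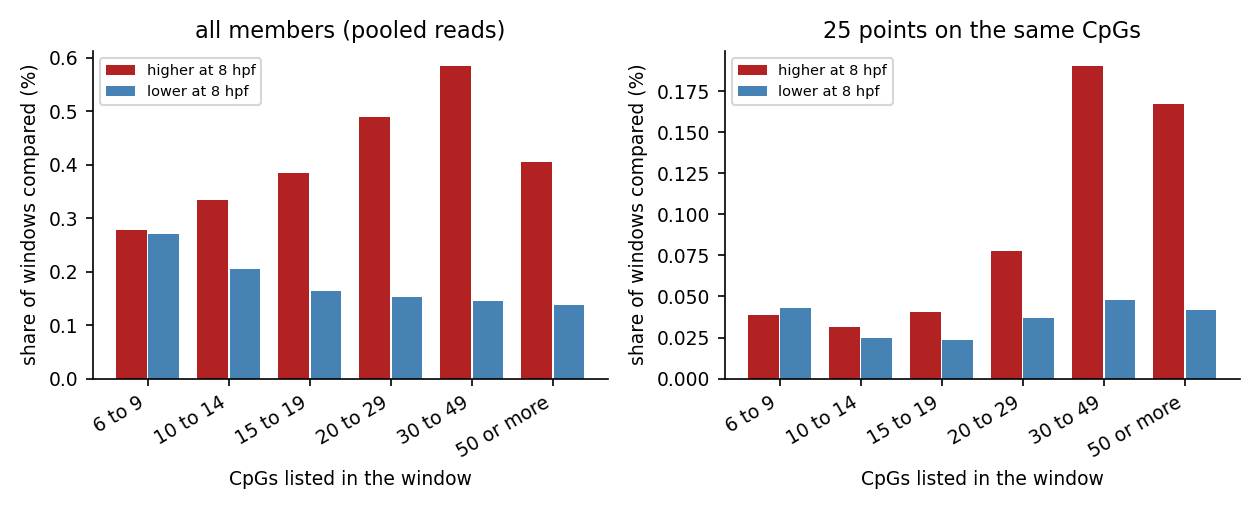
Share of windows compared (vertical axes, percent, with a different scale in each panel) that were higher or lower at 8 hpf, by the number of CpGs listed in the window (horizontal axes), for all chosen windows (left) and for those that also differed on the same CpGs (right). By both measures, 0.19% of windows with 30 to 49 CpGs were higher at 8 hpf, against 0.048% lower.

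Few CpGs of these windows were at the same extreme at both 24 and 2 hpf. Of the CpGs with at least 5 reads in both of those libraries in the 735 windows, 3.83% were low and 15.7% were high in both. In all windows, most of which started above 75%, 4.9% were low and 77.9% were high. In uncalled windows with a pooled level of 10% to 75% at 4 hpf, 23.4% were low and 34.7% were high. In the 735 windows, high CpGs were methylated in 90.5%, 69.3%, 93.4% and 91.7% of reads at 2, 4, 8 and 24 hpf. Low CpGs of the 735 windows were methylated in 7.21%, 6.33%, 19.5% and 5.4%. In the 365 windows lower on the same CpGs, low CpGs were methylated in 8.61%, 30.5%, 3.13% and 4.19% of reads at 2, 4, 8 and 24 hpf, and high CpGs in 93.4%, 93.6%, 84.3% and 93.3%. The values at 2 and 24 hpf follow from how the classes were defined. The choice of the windows fixes which class can differ at 4 and 8 hpf, so these values are a description.

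Across all 4 stages, levels were compared on one set of CpGs per window, those read at least 3 times in every library, each with equal weight, where a window had at least 6 of them. For 586 windows higher on the same CpGs, the median was 63.3%, 45.3%, 78.3% and 67.5% at 2, 4, 8 and 24 hpf. The medians at 2 and 24 hpf lay between those of 4 and 8 hpf, as windows picked for a low value at 4 hpf and a high value at 8 hpf can give without any change, and no test of this was made. In 343 of the 586 windows (58.5%) both 2 and 24 hpf were at least 10 points above 4 hpf. In 105 windows (17.9%) both were within 10 points of 8 hpf, and in 51 (8.7%) both were within 10 points of 4 hpf. A pattern with 2 hpf within 10 points of 4 hpf and 24 hpf within 10 points of 8 hpf was found for 50 windows (8.53%). These counts use the 4 and 8 hpf values that chose the windows and have no reference share, so they are descriptions.

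For 292 windows lower on the same CpGs, the median was 58.3%, 69.8%, 36.2% and 62.2% at 2, 4, 8 and 24 hpf. Here 2 hpf was nearer to 4 than to 8 hpf in 199 windows (68.2%), and both 2 and 24 hpf were nearer to 4 hpf in 141 (48.3%). These distances are taken to the 4 and 8 hpf values that chose the windows, and the 8 hpf library was the shallower. Windows picked for a low value at 8 hpf can give such counts without any change, and no test of this was made. Both lay within 10 points of 4 hpf in 57 windows (19.5%) and within 10 points of 8 hpf in 22 (7.53%). The pattern with 2 hpf within 10 points of 4 hpf and 24 hpf within 10 points of 8 hpf was found for 29 windows (9.93%), also without a reference share. In the windows that differed in pooled reads only, the medians lay within 10 points of each other, at 45.7%, 42.4%, 47.4% and 45.5% for 3080 windows higher at 8 hpf and at 64.5%, 66.6%, 57.8% and 60.8% for 1312 windows lower, each at 2, 4, 8 and 24 hpf.

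**Figure D5:**
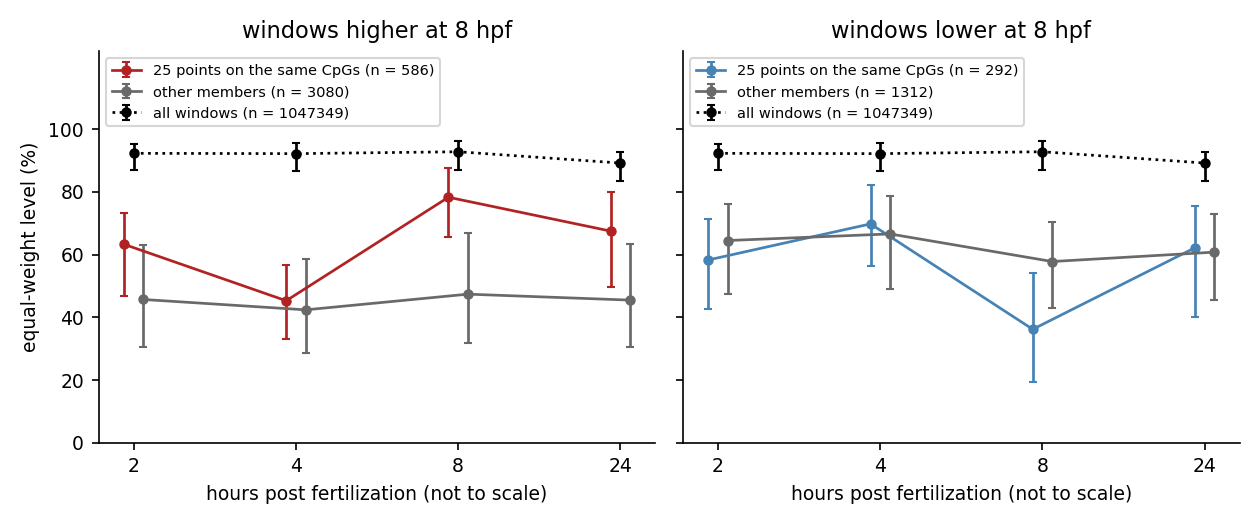
Equal-weight methylation level (vertical axis, percent) at 2, 4, 8 and 24 hpf for windows higher (left) and lower at 8 hpf (right), shown as medians with bars from the lower to the upper quartile over windows. Windows that differed on the same CpGs (coloured) are at 78.3% at 8 hpf and 45.3% at 4 hpf on the left. The other chosen windows (grey), set apart by lacking that difference, stay near their level by that choice between 4 and 8 hpf. All windows (black) lie near 90%.

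Differences of 25 points or more between 24 and 2 hpf were found on both sides. Of the 586 windows higher on the same CpGs, 50 (8.53%) were 25 points or more higher at 24 than at 2 hpf, against 0.110% of all 1047349 windows measured this way, and 33 (5.63%) were 25 points or more lower, against 0.167%. At any size, 370 of the 586 (63.1%) were higher at 24 than at 2 hpf, for which no reference share with equal weights was computed. In pooled reads, the share was 64.9% of uncalled windows that started between 25% and 50%. It was 40% of those that started between 50% and 75%. Of the 292 windows lower on the same CpGs, 18 (6.16%) were 25 points or more higher at 24 hpf and 13 (4.45%) were lower. At an equal-weight level of 25% to 50% at 4 hpf, 8.27% of windows higher on the same CpGs and 3.18% of uncalled windows were 25 points or more higher at 24 than at 2 hpf, while 6.69% and 0.513% were lower. At 50% to 75%, 2.92% and 0.362% were higher, while 5% and 0.568% were lower. Of the 119 windows lower on the same CpGs at that level, 9.24% were higher at 24 hpf and 7.56% were lower. In pooled reads, 343 of 4310 windows higher at 8 hpf (7.96%) were 25 points or more higher at 24 than at 2 hpf, against 0.195% of all windows. Another 52 (1.21%) were 25 points or more lower, against 0.201% of all windows. Pooled levels also depend on read placement. With equal weights, windows higher at 8 hpf without 25 points on the same CpGs did not exceed uncalled windows at 25% to 75%. The shares higher at 24 hpf were 1.91% and 3.18% at 25% to 50%, and 0.221% and 0.362% at 50% to 75%. Part of the excess of windows higher at 24 hpf in pooled reads went with the start level. Of windows that started under 75%, 7.96% of those higher at 8 hpf and 2.03% of uncalled windows were 25 points or more higher. At a pooled start under 10% the shares were 12.1% and 1.45%. At a pooled start of 10% to 25%, 13.1% of windows higher at 8 hpf and 6.93% of uncalled windows were 25 points or more higher. At 25% to 50% the shares were 5.68% and 5.58%, and at 50% to 75% they were 2.19% and 0.62%. Of 1977 windows lower at 8 hpf in pooled reads, 35 were 25 points or more higher at 24 than at 2 hpf and 137 (6.93%) were lower.

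The windows were spread over the genome. Every one of the 25 chromosomes held windows of both directions. The share of windows higher on the same CpGs was lowest on chromosome 18 (0.0286%) and highest on chromosome 4 (0.117%). The share lower was 0.0876% on chromosome 9, where 42 of the 365 windows lay, and between 0.014% and 0.0714% on the others. The part of chromosome 4 from 25 Mb on held 5.99% of the windows higher (4.49% to 7.94%) and 4.38% of the windows lower on the same CpGs (2.72% to 7%). It held 1.64% of all windows. The windows higher there include 4 adjoining windows of the highly covered run described below, and no test of enrichment was made. The outer 500 kb of the chromosomes held 2.59% and 3.29%, against 1.84% of all windows. Of the windows that differed on the same CpGs, 674 of 735 higher and 354 of 365 lower stood alone, with no adjoining window of the same kind. Another window of the same kind lay within 10 kb for 90 of those higher (12.2%) and 17 of those lower (4.66%). No reference share was computed for these counts.

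The longest run of adjoining windows was chr4:61295001-61300000, with 5 windows higher at 8 hpf. Its pooled levels were 1.5% to 3.48%, 4.67% to 11.6%, 32.8% to 42.5% and 59.7% to 72.4% at 2, 4, 8 and 24 hpf, each stage above the one before without overlap. Here 4 of 5 windows were 25 points or more higher on the same CpGs, and the fifth was 24.7 points higher (22.5 to 26.9). The run was read far more often than the rest of the genome, at 43.5 to 90.3, 44.2 to 107, 12.9 to 39 and 29 to 122 times the median window coverage of the 2, 4, 8 and 24 hpf library. The reads of several copies, where they are joined at one position, cannot be told apart.

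The longest run of windows lower at 8 hpf was chr6:32406001-32409000, with 3 windows. Their pooled levels were 74% to 81.7%, 77.7% to 89.7%, 49.8% to 57.4% and 82.7% to 86.8% at 2, 4, 8 and 24 hpf. All 3 were lower on the same CpGs, by 27.6 to 33 points, at 0.347 to 2.38 times the median coverage in all 4 libraries. The 8 hpf library held 99 to 203 reads in each window.

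Of the 10 windows with the largest pooled difference in each direction, among those with at least 100 reads at 8 and at 4 hpf, the difference on the same CpGs was 25 points or more in 3 of 10 windows higher and in 3 of 10 lower. It was under 10 points in 4 of the windows higher and in 7 of the windows lower. The window chr5:37485001-37486000 was 49 points higher on the same CpGs (41.7 to 56.3), with equal-weight levels of 61.7%, 33.5%, 80.5% and 91.2% at 2, 4, 8 and 24 hpf. Of its CpGs read at least 3 times in both libraries, 17 of 18 were more methylated at 8 hpf. The window chr9:15732001-15733000 was 30.3 points higher on 9 shared CpGs (17 to 43.6).

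Among these windows lower at 8 hpf, chr5:7352001-7353000 had the largest difference by both measures. Its pooled level was 22.1% in 104 reads at 8 hpf and 75.4% in 276 reads at 4 hpf, and it was lower in 13 of 14 CpGs. Its equal-weight levels were 50.5%, 77.4%, 27.2% and 64.5% at 2, 4, 8 and 24 hpf, so that 24 hpf was nearer to 4 than to 8 hpf. In 2 other windows 24 hpf was nearer to 8 hpf. The window chr23:23259001-23260000 had 50.6%, 61.8%, 9.32% and 26.3% at 2, 4, 8 and 24 hpf, with 27 of 28 CpGs lower at 8 hpf. The window chr1:14425001-14426000 had 59.8%, 63.8%, 15.3% and 18% at 2, 4, 8 and 24 hpf. It held 105 reads at 8 hpf and 82 at 24 hpf, counted at each CpG they spanned. At 8 hpf, each CpG from position 14425074 to 14425106 was methylated in 0 of 8 reads. The CpGs at 14425395 and 14425811 were methylated in 6 of 6 and 5 of 6 reads. The low level at 8 hpf thus lay in a short stretch with few reads.

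Further windows were chosen after their values were seen, as those with the largest difference on the same CpGs and at least 100 reads at 8 and at 4 hpf. The window chr6:2166001-2167000 had 63.1%, 16.1%, 62.4% and 19% at 2, 4, 8 and 24 hpf, and all 19 CpGs read at least 3 times in both libraries were higher at 8 hpf. The window chr17:9892001-9893000 had 26%, 17.2%, 59.6% and 41% at 2, 4, 8 and 24 hpf. Among the windows lower, chr25:36834001-36835000 had 38.8%, 59.7%, 7.7% and 35.1% at 2, 4, 8 and 24 hpf, with a median CpG fraction of 0% at 8 hpf and 63.2% at 4 hpf. The order of stages differed from window to window.

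Depth changed how many windows were found. The median number of reads per window at 8 hpf was 112 in all windows higher and 78.5 in all windows lower, against 141 over all windows compared. Of windows with 40 to 59 reads at 8 hpf, 0.164% were higher and 0.144% lower on the same CpGs, and of those with at least 200 and under 400 reads, 0.0527% were higher and 0.0133% were lower. Among the 780647 windows with at least 100 reads in both libraries, 392 were higher and 132 were lower on the same CpGs. The 95% interval of the same-CpG difference lay wholly past 25 points in 209 of the 735 windows higher and 90 of the 365 lower, and past 10 points in 725 and 357, in windows that this same difference chose. Since one read spans several CpGs and its calls are not independent, these intervals are too narrow.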

How the data were processed

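DNA of timed embryos was sequenced after bisulfite treatment, mapped by the authors to Zv9 (danRer7) and deposited as 1 file per library. For each CpG the authors deposited the coverage as a read number over both strands, not normalized, and the fraction of these reads that were methylated. An aligner is not given in the sources used here, nor is duplicate handling. Fraction times coverage gave whole reads within 0.00124 reads. All 24222160 nuclear CpGs were used.

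Reads at each CpG were summed over 1 kb windows, so a read spanning several CpGs was counted at each. Windows with at least 6 covered CpGs and 40 reads in both libraries were compared, and 25 points was the threshold. The Mantel-Haenszel difference weighted each CpG by n8 × n4 / (n8 + n4), where n is its reads, with an interval after Sato, and was added after the pooled values were seen. Windows were named by rule, as the 10 largest pooled differences per direction with at least 100 reads at 8 and 4 hpf, the minimum at 24 and 2 hpf and under 3 times the median window coverage in all 4 libraries, at most 1 per 10 kb, and the longest run. The members and lists were chosen with earlier results of these data known. Read minimums, CpG minimums, weights, thinning, shifted windows, thresholds and a Fisher exact test with Benjamini-Hochberg adjustment were tried as alternatives. Gene annotation was left out, since none of build Zv9 was used here, and no sequence is shown for that reason. The scripts were tested on simulated data and used matplotlib 3.10.9, numba 0.67.0, scipy 1.17.1, pandas 2.3.3 and numpy 2.4.6 in Python 3.11.15.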

Additional observations from a re-analysis of the deposited data

How the results depend on the processing

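No paired analysis was possible because each stage has 1 library. Of 62 counts recomputed under an alternative, 40 were within 1.5 times the reported count and 22 were further away. Among the 780647 windows with 100 reads in both libraries, 2496 were higher and 724 were lower at 8 hpf in pooled reads. On the same CpGs the counts were 392 and 132. Among the 475706 windows with a mean coverage of 10 reads per covered CpG, they were 902 and 434 in pooled reads. On the same CpGs they were 127 and 68. A threshold of 20 points gave 8129 and 4866 in pooled reads, and 1560 and 861 on the same CpGs. A threshold of 30 points gave 2377 and 910, and 349 and 159. Both kinds of setting change the number of windows by construction. An unweighted mean of the CpG fractions gave 2142 windows higher. A minimum of 20 reads gave 635 windows lower on the same CpGs, of 1142291 compared. The measures added after the data were seen gave 905 windows higher and 528 lower (Mantel-Haenszel difference over all windows), and 850 and 531 (equal weights over CpGs read at least 3 times in all 4 libraries). Of 96 recomputed medians and shares, 80 stayed inside the 95% counting interval of the reported value and 16 did not, most of them with 100 reads. The largest depth limit is 8 hpf, with a median of 6 reads per CpG. With 1 library per stage, a difference between stages and a difference between embryo pools or libraries cannot be told apart.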
